A study of Mus musculus with 32 samples.

Results

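The metallothionein genes Mt1, Mt2 and Mt3 were followed in RNA from mouse frontal cortex profiled by 3'Pool-seq, in which reverse transcription starts at the poly(A) tail and the reads fall near the 3' ends of transcripts. The members were the rows of the count table with these 3 symbols, out of 33000 genes. The mice were C57BL/6 animals aged 3 months, either wild type (WT) or homozygous for GFAP-IL6, a transgene that places interleukin 6 under the promoter of the astrocyte gene Gfap and is used as a model of neuroinflammation. No agent was given to either genotype. Reverse transcription received 50, 10, 1 or 0.5 ng of total RNA, and with 4 libraries for each genotype at each input there were 8 groups and 32 libraries. Nothing in the labels says whether libraries with the same number came from the same mouse. Every p-value therefore measures the spread between these libraries, which may be partly technical. For each gene the tests draw that spread toward the spread of genes of similar abundance. The main fits across inputs treated all libraries as independent.

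A library held 261378 to 9840300 counts, and the median total was 3603630 for the 50 ng libraries, 4463020 for 10 ng, 1457720 for 1 ng and 1428120 for 0.5 ng. A level is given as CPM, the count scaled to a common library total. The smallest level counted as measurable, 3 counts, came to between 0.305 and 11.5 CPM depending on depth, which covers counting error only. All 3 members were above 0 in all 32 libraries. Il6, the gene carried by the transgene, had 0 to 3 counts per WT library at 50 and 10 ng and 2 to 41 counts per GFAP-IL6 library. At 1 ng the library labelled WT replicate 3 had 13 Il6 counts while those labelled GFAP-IL6 replicates 2 and 3 had 0, and at 0.5 ng the count was 0 in every library. Gfap at 0.5 ng was 30.8 CPM in the library labelled WT replicate 1 and 9.61 CPM in that labelled GFAP-IL6 replicate 1, so the labels were not separated by these genes at the 2 lower inputs. All 8 neuron markers (Rbfox3, Snap25, Syt1, Tubb3, Map2, Nefl, Slc17a7 and Gad1) were detected in every group, and the group means of their summed level were 6492 to 7513 CPM.

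Metallothioneins are small, cysteine-rich proteins that bind zinc and copper and buffer the amount of free metal in a cell. Mt1 and Mt2 are made in most tissues and are induced by zinc and other metals through the transcription factor MTF-1, by glucocorticoids, and by interleukin 6 signalling through STAT3. In brain they are known mainly from astrocytes. Mt3 is the form known for its restriction largely to the nervous system, and responds little to the inducers of Mt1 and Mt2. Mt4, the remaining family member, is known from stratified squamous epithelium.

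The 4 genes lie side by side on the plus strand of chromosome 8 within 43131 bases of GRCm38. Mt4 spans 94137197 to 94139031, Mt3 94152607 to 94154146, Mt2 94172664 to 94173568 and Mt1 94179082 to 94180327. Each has 3 exons in its main transcript, and the last exon, where 3' reads are expected, is 226 bases long in Mt1, 233 in Mt2 and 246 in Mt3. The RefSeq promoter windows of GRCm38.p6, from 250 bases before to 50 after each RefSeq start, were searched on both strands for the core of the metal response element that MTF-1 binds, TGCACNC or TGCGCNC. Matches to either form numbered 3 in Mt1, 4 in Mt2 and 1 in Mt3. Of 32851 promoter windows of the same length, 12.6% held TGCACNC and 15.4% TGCGCNC. Counting both forms, 25.7% held at least 1 match, 1.97% at least 3 and 0.517% at least 4. The matches are shown because their number differs between the inducible pair and Mt3, each as a short stretch read 5' to 3' on the strand of the match with the core in capitals.
Mt1, plus strand, chr8:94179057-94179081: gtcccgctgTGCACACtggcgctcc
Mt1, plus strand, chr8:94179082-94179106: agggagctcTGCACTCcgcccgaaa
Mt1, plus strand, chr8:94179100-94179124: cccgaaaagTGCGCTCggctctgcc
Mt2, plus strand, chr8:94172386-94172410: catcgcctcTGCACCCggcccctcg
Mt2, plus strand, chr8:94172481-94172505: cagacccttTGCGCTCagctccttt
Mt2, minus strand, chr8:94172559-94172583: gacagagccTGCACACgccctcccc
Mt2, minus strand, chr8:94172613-94172637: ccctgggccTGCGCACgacccgaat
Mt3, plus strand, chr8:94152625-94152649: ggacagcagTGCACACacacggaga
The last 2 matches of Mt1, the last of Mt2 and the match of Mt3 lie after the RefSeq start. Whether transcription in this tissue begins at these annotated starts was not tested, and sequence outside the windows was not searched. The numbers of matches therefore hold for these windows and not for whole promoters. The STAT3 sequence TTCCNGGAA, present in 1.15% of all windows, was in none of the 3, and the antioxidant response element core TGACNNNGC, present in 12.4%, occurred once, in Mt2. A match is a stretch of letters and not a bound site, and the lack of a match says only that the letters are not in this window.

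The transcripts differ enough for their reads to be told apart. Over the aligned main transcripts, identity was 62.7% between Mt1 and Mt2, 56.9% between Mt1 and Mt3 and 56.0% between Mt2 and Mt3. In the last 300 bases of each, all 231 windows of 70 bases were unique to the gene in Mt1 and in Mt3. In Mt2, 223 of 231 were unique, and the others were shared with Gm45774, a gene on the opposite strand that overlaps the last exon of Mt2 by 77 bases. Gm45774 was not analysed here, and whether the counting used strand was not stated, so reads from it and from Mt2 cannot be told apart in that overlap. Guanine and cytosine made up 58.1% of the Mt1 transcript, 55.6% of Mt2 and 62.3% of Mt3.

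Mt1 was among the most abundant transcripts of the cortex at every input, at rank 51 to 178 of the 33000 genes in a library. Its CPM in WT replicates 1 to 4 at 50 ng was 963, 1009, 1312 and 1160, a mean of 1111 ± 158 (SD, n = 4). In GFAP-IL6 at 50 ng the 4 libraries had 1021, 1015, 1178 and 730 CPM, a mean of 986 ± 186. Replicate 4 of GFAP-IL6 was the lowest of the 8 and lay below all WT libraries, and the other 3 lay within the WT range. At 10 ng, Mt1 was 1006, 1029, 1343 and 1139 CPM in WT (1129 ± 154) and 1020, 1066, 1173 and 935 CPM in GFAP-IL6 (1049 ± 99.5), with WT replicate 3 again the highest and GFAP-IL6 replicate 4 again the lowest. At 1 ng it was 871, 835, 1015 and 1126 CPM in WT (962 ± 134) and 948, 1048, 1086 and 977 CPM in GFAP-IL6 (1015 ± 63.6). At 0.5 ng it was 639, 739, 794 and 893 CPM in WT (767 ± 106) and 738, 810, 814 and 795 CPM in GFAP-IL6 (789 ± 35.1). All GFAP-IL6 libraries lay within the WT range at both of these inputs. Ordered by mean, the groups ran from WT at 10 ng to WT at 0.5 ng, and each group overlapped the next except that all 4 WT libraries at 1 ng lay above all 4 GFAP-IL6 libraries at 0.5 ng.

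Mt2 followed at a lower level, at rank 248 to 899. Its CPM at 50 ng was 215, 317, 361 and 313 in WT (302 ± 61.9) and 222, 323, 340 and 235 in GFAP-IL6 (280 ± 60.0), all GFAP-IL6 libraries within the WT range. At 10 ng it was 259, 295, 368 and 343 CPM in WT (316 ± 48.8) and 283, 319, 357 and 280 CPM in GFAP-IL6 (310 ± 36.1), again within the WT range. At these inputs replicate 1 was the lowest WT library and replicate 3 the highest in both genotypes. At 1 ng Mt2 was 274, 262, 446 and 344 CPM in WT (332 ± 84.3) and 303, 471, 264 and 362 CPM in GFAP-IL6 (350 ± 90.2). At 0.5 ng it was 195, 262, 493 and 273 CPM in WT (306 ± 130) and 276, 359, 265 and 272 CPM in GFAP-IL6 (293 ± 44.3). The highest and lowest values of the gene thus both came from WT libraries at 0.5 ng, replicates 3 and 1. The group means covered 280 to 350 CPM, from GFAP-IL6 at 50 ng to GFAP-IL6 at 1 ng, and every group overlapped the next in the order.

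Mt3, the brain form, was the least abundant of the 3 in every library, at rank 4896 to 7850. The gene is generally described as abundant in mouse brain, and why its level was low in these counts was not tested, which applies to its balances with Mt1 and Mt2 as well. At 50 ng it had 46, 16, 63 and 127 counts in the WT libraries, or 12.7, 12, 17.5 and 16.8 CPM (14.8 ± 2.80). The GFAP-IL6 libraries at 50 ng had 53, 18, 88 and 95 counts, or 15.4, 16.8, 20.3 and 17.0 CPM (17.4 ± 2.09), and replicate 3 lay above all WT libraries. At 10 ng the level was 15.8, 16.5, 16.2 and 15.3 CPM in WT (16 ± 0.505) and 15.7, 14.1, 17.7 and 14.7 CPM in GFAP-IL6 (15.6 ± 1.55). These 8 values were the tightest set of the gene. At 1 ng it was 30.8, 13.6, 18.5 and 17.2 CPM in WT (20.01 ± 7.45) and 23.1, 19.1, 26.2 and 22.9 CPM in GFAP-IL6 (22.8 ± 2.89), and replicate 2 of each genotype rested on only 5 counts. At 0.5 ng it was 15.8, 28.2, 23.9 and 20.9 CPM in WT (22.2 ± 5.21) and 19.2, 23.7, 19.9 and 20.6 CPM in GFAP-IL6 (20.8 ± 2.0) and rested on 7 to 56 counts. The group means ran from 14.8 CPM in WT at 50 ng to 22.8 CPM in GFAP-IL6 at 1 ng, and all neighbours in the order overlapped. Mt4 had 0 counts in all 32 libraries.

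**Figure D1:**
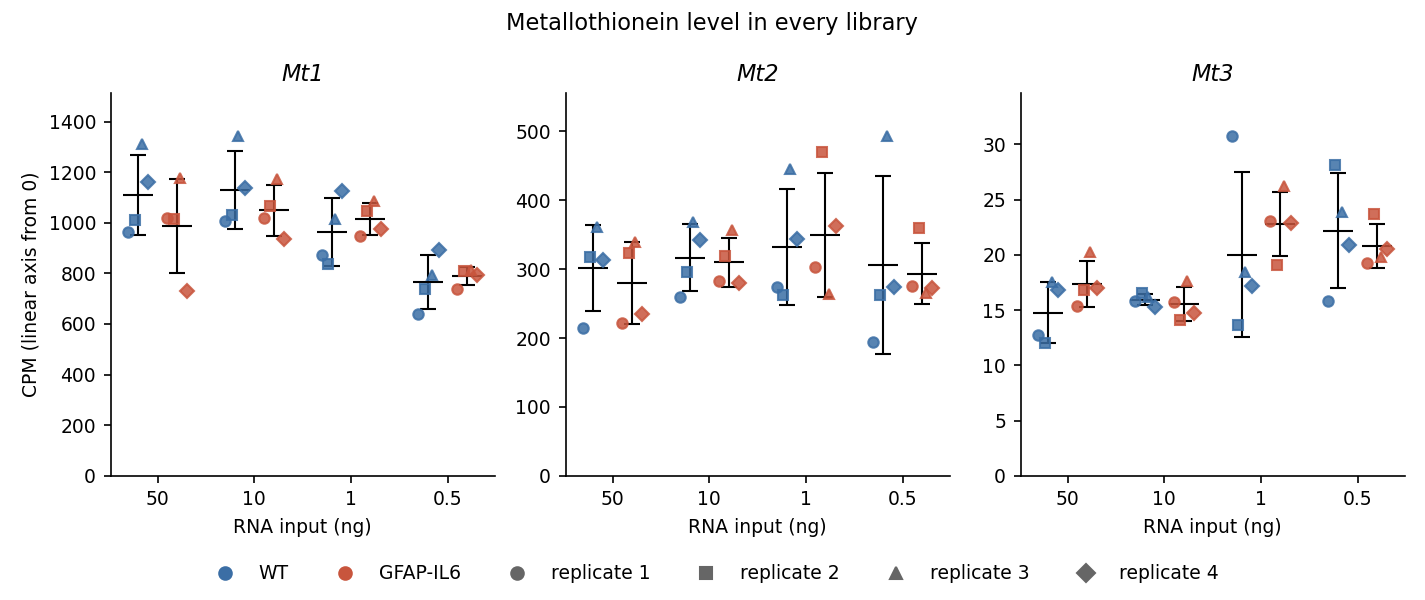
CPM of Mt1, Mt2 and Mt3 (y axes, linear from 0, a different scale for each gene) in each of the 32 libraries by RNA input in ng (x axes), with colour for genotype, marker shape for replicate number and black bars for the mean and SD of 4 libraries. WT and GFAP-IL6 points overlap for each gene at each input, and the Mt1 points at 0.5 ng, 639 to 893 CPM, sit below most of those at 50 ng.

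Between genes, levels were compared per kilobase of the gene length in the table, as CPM per kb, although 3' reads do not scale with transcript length and the 3 lengths, 540, 556 and 538 bases, were close. Over the 8 libraries at 50 ng, Mt1 stood at 1942 ± 321, Mt2 at 523 ± 104 and Mt3 at 29.9 ± 4.96 CPM per kb. The ranges of the 3 genes did not touch, 1353 to 2430 for Mt1, 386 to 650 for Mt2 and 22.4 to 37.7 for Mt3. The same order held in each library at the other inputs, where the highest Mt2 level, 887 CPM per kb at 0.5 ng, stayed below the lowest Mt1 level, 1184 CPM per kb at the same input. Together the 3 genes took 0.136% of all counts at 50 ng and 0.110% at 0.5 ng, as the mean of 8 libraries. The share of Mt1 in that sum was 77.3% at 50 ng, and that of Mt3 was 1.21%.

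The spread between replicate libraries was larger than counting alone gives for Mt1 and Mt2 and mostly not for Mt3. The coefficient of variation (CV) of Mt1 within a group was 4.45% to 18.9%, against 1.69% to 3.92% from Poisson counting, and that of Mt2 was 11.7% to 42.4%, against 3.19% to 6.28%. Both exceeded counting in 8 of 8 groups. The CV of Mt3 was 3.16% to 37.2%, against 13.8% to 26.9% from counting, and exceeded it in 3 of 8 groups, all WT. The biological coefficient of variation of Mt1 in the edgeR fit was 0.178 at 50 ng, 0.139 at 10 ng and 0.241 at 0.5 ng, beside 0.187, 0.148 and 0.290 on the trend for genes of its abundance. That of Mt3 was 0.199 at 50 ng and 0.802 at 0.5 ng, beside 0.233 and 1.01 on the trend. Each of these fitted values is drawn toward the trend, so the 0.802 of Mt3 is not the spread of its own libraries alone. Their CV at 0.5 ng was 23.5% in WT and 9.59% in GFAP-IL6, against 21.2% and 23.5% from counting.

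**Figure D2:**
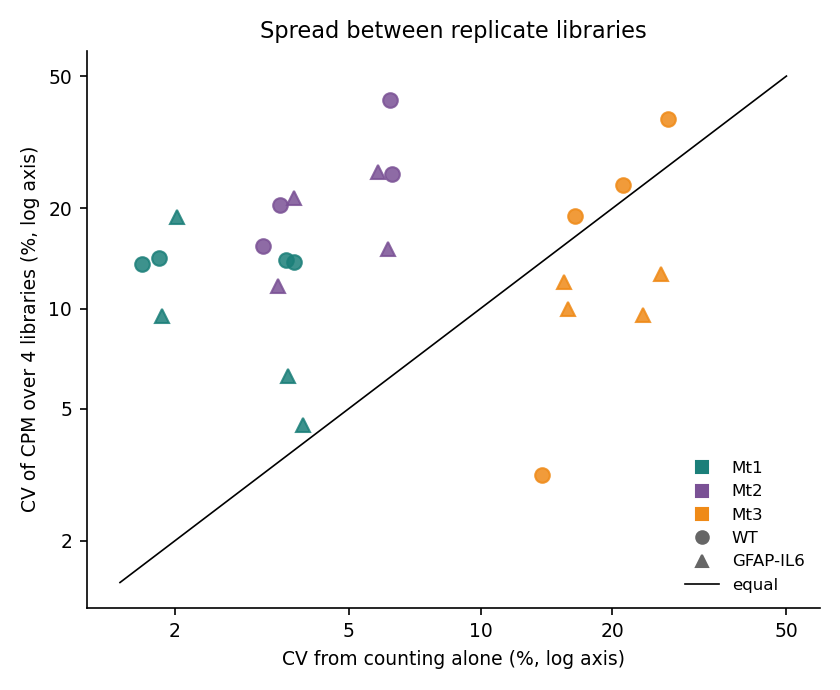
CV of CPM over the 4 libraries of a group (y axis, %, log scale) against the CV that Poisson counting alone gives (x axis, %, log scale), for each gene (colour) and genotype (marker), with 1 point per input and a line of equality. All points of Mt1 and Mt2 lie above the line, and 5 of the 8 points of Mt3 lie below it.

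The comparison of GFAP-IL6 with WT at a single input asked how the transgene moves the members. None of the 3 passed at any input, where passing means a Benjamini-Hochberg adjusted p under 0.05 over all genes in edgeR's quasi-likelihood test. Of all genes, 0.28% passed at 50 ng and 0.332% at 10 ng, and the shares for 1 and 0.5 ng were 0.0323% and 0.0117%. The count behind the share at 50 ng, 33 genes, ran from 11 (without WT replicate 4) to 78 (without GFAP-IL6 replicate 4), and leaving out any library but WT replicate 3 moved it by over 1.5 times. At 50 ng the log2 fold change of Mt1 was -0.21 ± 0.17 (SE, 95% interval -0.55 to 0.14, edgeR adjusted p = 0.837). That of Mt2 was -0.15 ± 0.18 (-0.53 to 0.23, edgeR adjusted p = 0.876) and that of Mt3 was 0.17 ± 0.24 (-0.32 to 0.66, edgeR adjusted p = 0.889). As a percent change in GFAP-IL6, the interval ran from -31.9% to 9.92% for Mt1, from -30.6% to 17.3% for Mt2 and from -19.7% to 58.1% for Mt3. A doubling in GFAP-IL6 thus lay outside the interval of each gene at 50 ng in this fit. In a single fit of all 32 libraries the Mt3 interval at 50 ng, -0.69 to 1.13, included a doubling.

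At 10 ng, where the SE of Mt1 and Mt2 was smallest, the log2 fold change was -0.14 ± 0.12 for Mt1 (-0.38 to 0.11), -0.063 ± 0.14 for Mt2 (-0.34 to 0.21) and -0.054 ± 0.28 for Mt3 (-0.62 to 0.51), with edgeR adjusted p of 0.823, 0.930 and 0.973. These values, like those at 50 ng, lay within the spread between libraries. At 1 ng they were 0.061 ± 0.14 for Mt1, 0.056 ± 0.21 for Mt2 and 0.17 ± 0.61 for Mt3, each with an edgeR adjusted p of 0.997. At 0.5 ng they were 0.010 ± 0.17, -0.080 ± 0.27 and -0.12 ± 0.92, each with an edgeR adjusted p of 0.9999. The interval of Mt3 at 0.5 ng, -2.04 to 1.80, held changes of several fold in either direction, while that of Mt1, -0.35 to 0.37, remained narrow. The 8 Mt3 levels at 0.5 ng themselves spanned 15.8 to 28.2 CPM, and its interval also carries the spread of other genes of its abundance.

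Some libraries stood apart from their groups. WT replicate 3 had Ttr, a gene of the choroid plexus epithelium, at 3003 to 3355 CPM across the inputs, against 25.5 to 335 CPM in the other libraries, and the sum of 6 choroid plexus markers was 3041 to 3414 CPM in it against 25.5 to 348 CPM elsewhere. It also held the highest Mt1 and Mt2 of all libraries at 50 and 10 ng. Without it the log2 fold change at 50 ng was -0.13 for Mt1, -0.059 for Mt2 and 0.25 for Mt3, and at 10 ng -0.081, -0.021 and -0.082. GFAP-IL6 replicate 4, with the lowest Mt1 at both inputs, had the lowest Gfap of its genotype there, 30.6 CPM at 50 ng against 43.7 to 74.0 CPM in the other 3. Without GFAP-IL6 replicate 4, Mt1 stood at -0.072 at 50 ng, with an interval of -0.27 to 0.13, and at -0.087 at 10 ng. Leaving out WT replicate 1, the library with the lowest Mt2 at both inputs, moved the values away from 0, to -0.27 for Mt1 and -0.28 for Mt2 at 50 ng and to -0.19 and -0.15 at 10 ng, and gave 0.099 for Mt3 at 50 ng. The part of choroid plexus RNA in the result was not tested. At the lower inputs, leaving out the library labelled WT replicate 3 gave 0.050 for Mt1, 0.18 for Mt2 and 0.093 for Mt3 at 1 ng. Mt3 at 1 ng was 0.46 without the library labelled WT replicate 1, and leaving out the one labelled WT replicate 1 gave -0.065, -0.24 and -0.25 at 0.5 ng. No member passed in any of these fits.

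Genes of reactive glia passed in the same comparisons. Gfap, the astrocyte intermediate filament gene, rose by a log2 fold change of 2.20 ± 0.27 at 50 ng (edgeR adjusted p = 0.000113) and 2.49 ± 0.28 at 10 ng (edgeR adjusted p = 4e-07), and all 4 GFAP-IL6 libraries lay above all WT libraries at both inputs. At 1 and 0.5 ng its value was 1.83 ± 0.63 and 1.59 ± 0.92 and did not pass. Ctss, a cathepsin of microglia, rose at every input, with log2 fold changes of 1.50 ± 0.22, 1.75 ± 0.15, 1.85 ± 0.19 and 1.99 ± 0.24 from 50 down to 0.5 ng (edgeR adjusted p at most 0.00126).

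**Figure D3:**
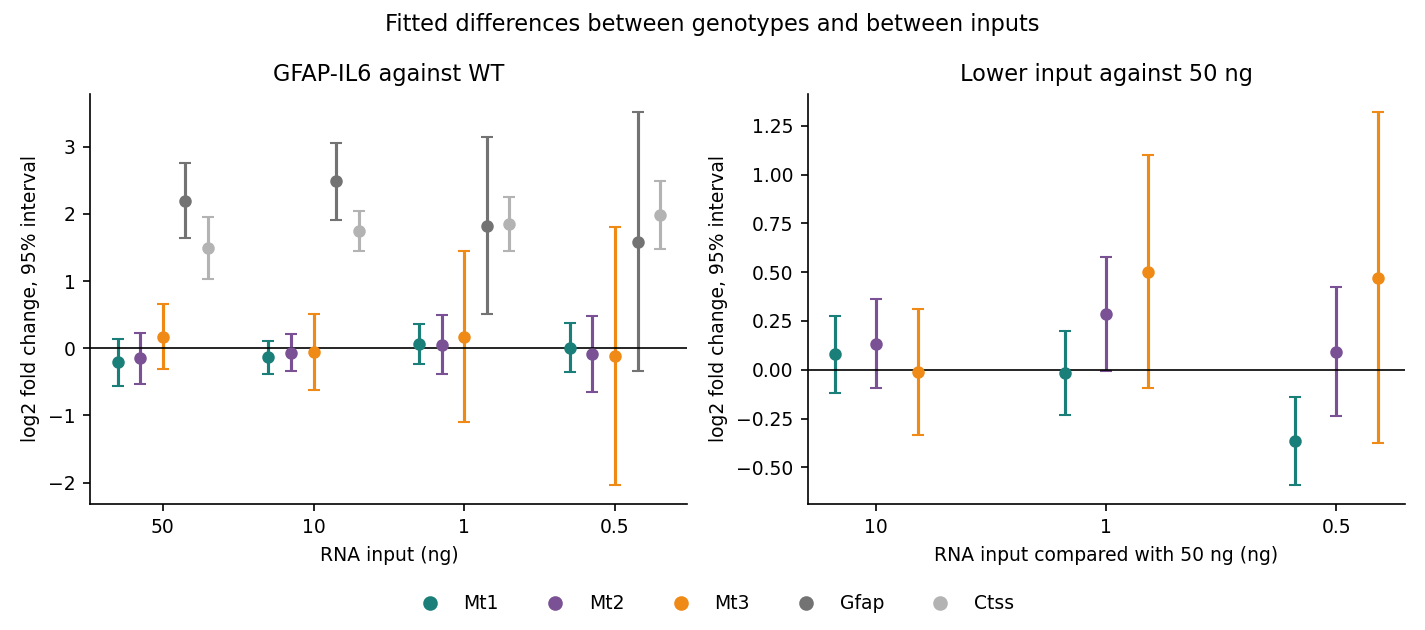
Fitted log2 fold changes (points) with 95% intervals (bars) for GFAP-IL6 against WT at each input (left) and for each lower input against 50 ng over both genotypes (right). The intervals of Mt1, Mt2 and Mt3 include 0 at all inputs on the left, while those of Ctss do not, and on the right the only member interval that leaves out 0 is that of Mt1 at 0.5 ng, -0.59 to -0.14.

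The input comparison asked whether the measured level of a member depends on how much RNA entered the reaction, with genotype as a covariate and 16 libraries per fit. No member passed. At 10 ng against 50 ng no gene of 12599 passed (0%) in edgeR, 549 had an unadjusted p under 0.05, and DESeq2 called 29. With the replicate number within each genotype as the covariate, 155 genes passed in edgeR, no member among them. In the fit with genotype alone the members stood at 0.079 ± 0.097 (Mt1), 0.13 ± 0.11 (Mt2) and -0.0092 ± 0.16 (Mt3) on the log2 scale. At 1 ng, where 1.14% of all genes passed, Mt1 was at -0.017 ± 0.10, Mt2 at 0.29 ± 0.14 (95% interval -0.0055 to 0.58, edgeR adjusted p = 0.458) and Mt3 at 0.50 ± 0.29 (-0.094 to 1.10, edgeR adjusted p = 0.553). At 0.5 ng, where 1.68% of all genes passed, Mt2 was at 0.094 ± 0.16 and Mt3 at 0.47 ± 0.41. The counts of all genes moved with single libraries here too. Without GFAP-IL6 replicate 4 they were 20 at 10 ng and 206 at 1 ng, against 0 and 129 with it. At 1 ng they were 78 without GFAP-IL6 replicate 2, 74 without WT replicate 1 and 71 without WT replicate 4, and at 0.5 ng 192 became 107 without WT replicate 4.

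Mt1 at 0.5 ng was the value nearest to the threshold. Its mean CPM over both genotypes was 778 ± 74.2 (SD, n = 8) against 1049 ± 173 at 50 ng, and 8 of 8 libraries lay below the median at 50 ng, though only 1 lay below the lowest library there. The log2 fold change was -0.36 ± 0.11 (95% interval -0.59 to -0.14), or -22.3%, with an edgeR adjusted p of 0.103, which did not pass. It passed without GFAP-IL6 replicate 4, the library with the lowest Mt1 at 50 ng, at -0.44 (edgeR adjusted p = 0.0157), in DESeq2's test at -0.32 (adjusted p = 0.0497), without the filter on low counts at -0.40 (edgeR adjusted p = 0.0340) and in a single fit of all 32 libraries at -0.36 (edgeR adjusted p = 0.0147). Of all genes, 218 of 11015, 771 of 14322, 833 of 19106 and 818 of 12164 passed in these settings, in that order, against 192 of 11406 in the main fit. The median total count was also lower at 0.5 ng, and with all libraries thinned to the lowest total, 261378 counts, the value was -0.38 (edgeR adjusted p = 0.0881). Against 50 ng, 1.14% of all genes passed at 1 ng and 1.68% at 0.5 ng, in either direction. Of the blood markers, 4 of 4 tested, all globin genes, rose at 1 ng and 1 of 4 at 0.5 ng. That gene, Hbb-bs, rose by 1.16 ± 0.13 at 1 ng and 0.77 ± 0.14 at 0.5 ng (edgeR adjusted p at most 0.00393). The part of these differences in the Mt1 value was not tested.

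Whether the genotype difference of a member changed with input was tested as an interaction against 50 ng. No member passed, and no gene passed in edgeR at 10 ng (0% of 12599 genes, 174 with an unadjusted p under 0.05), at 1 ng (0% of 11290, 471) or at 0.5 ng (0% of 11406, 758). DESeq2 called 0, 5 and 162 genes in the same comparisons, no member among them. The difference in genotype effect for Mt1 was 0.060 ± 0.20 at 10 ng, 0.24 ± 0.21 at 1 ng and 0.19 ± 0.22 at 0.5 ng. For Mt2 it was 0.074 ± 0.23, 0.17 ± 0.29 and 0.030 ± 0.33, and for Mt3 -0.24 ± 0.32, -0.053 ± 0.59 and -0.34 ± 0.82. Each of these 95% intervals included 0.

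The balance of the members within a library does not depend on the library's size, and is given without a test. In log2 counts, Mt1 exceeded Mt2 by 2.17, 1.67, 1.86 and 1.89 in WT at 50 ng and by 2.20, 1.65, 1.79 and 1.64 in GFAP-IL6, so that the genotypes overlapped. At 10 ng the 8 libraries lay between 1.72 and 1.96, with a mean of 1.80. At 1 ng the mean was 1.56 and at 0.5 ng it was 1.42, and 3 of 8 and then 6 of 8 libraries lay below the lowest value at 50 ng. The smallest excess, 0.69, was that of WT replicate 3 at 0.5 ng, the library with the highest Mt2. Mt1 over Mt3 went from a mean of 6.03 at 50 ng and 6.11 at 10 ng to 5.56 at 1 ng and 5.19 at 0.5 ng, where 8 of 8 libraries lay below the lowest value at 50 ng. Mt2 over Mt3 had means of 4.17, 4.30, 4.00 and 3.77 from 50 to 0.5 ng, and 5 of 8 libraries at 0.5 ng lay below the lowest at 50 ng. No member passed alone for input in the main fits, and the Mt3 counts at 0.5 ng were 7 to 56. The share of all gene pairs whose balance separates 0.5 from 50 ng was not counted, so these shifts only describe the libraries.

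Between genotypes, the Mt1 to Mt3 balance at 50 ng did not overlap. It was 6.24, 6.39, 6.23 and 6.11 in WT and 6.06, 5.92, 5.86 and 5.42 in GFAP-IL6, a difference of means of -0.43. At 10 ng the difference was -0.060 with overlapping values, at 1 ng -0.16 and at 0.5 ng 0.12, also overlapping. Neither gene passed alone at 50 ng, where 0.28% of all genes did, and the Mt3 counts of these libraries were 16 to 127. The Mt1 to Mt2 and Mt2 to Mt3 balances overlapped between genotypes at all 4 inputs. The share of all gene pairs that do not overlap was not counted, so the separation at 50 ng only describes these libraries.

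**Figure D4:**
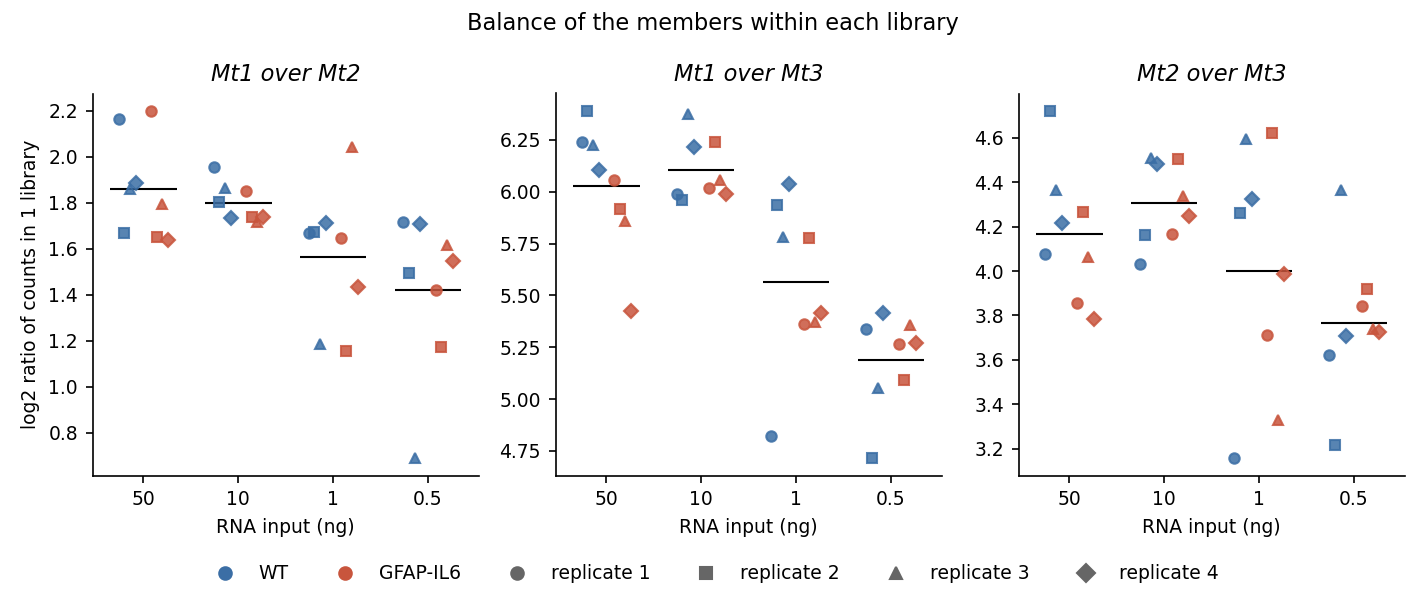
Log2 ratio of counts of 2 members within a library (y axes, a different range for each pair and not from 0) by RNA input in ng (x axes), with colour for genotype, marker shape for replicate number and a black line for the mean of 8 libraries. The Mt1 to Mt3 points at 0.5 ng, 4.71 to 5.42, lie below all points at 50 ng, and the Mt1 to Mt2 mean goes from 1.86 at 50 ng to 1.42 at 0.5 ng. How many other gene pairs separate in this way was not counted.

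Libraries of the same genotype and number mostly deviated from their group means in the same direction at 50 and 10 ng for Mt1 and Mt2. Over the 8 pairs, Pearson's r of the deviations of log2(CPM + 1) was 0.90 for Mt1 (Spearman's rho 0.90) and 0.90 for Mt2 (rho 0.88), and 7 of 8 pairs had the same sign for each gene. After leaving out the 2 libraries farthest from the median at 50 ng, r was 0.94 for Mt1 and 0.82 for Mt2. For Mt3, r was 0.20 (rho -0.024) and turned to -0.64 without those 2 libraries, and 5 of 8 pairs had the same sign. Between 50 and 1 ng, r was 0.58 for Mt1, 0.36 for Mt2 and 0.013 for Mt3, and between 50 and 0.5 ng it was 0.40, 0.67 and 0.019. Without the same 2 libraries these were 0.61, 0.080 and -0.12 at 1 ng and 0.27, 0.47 and -0.083 at 0.5 ng. These 8 points may share their RNA and are a description of these libraries.

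**Figure D5:**
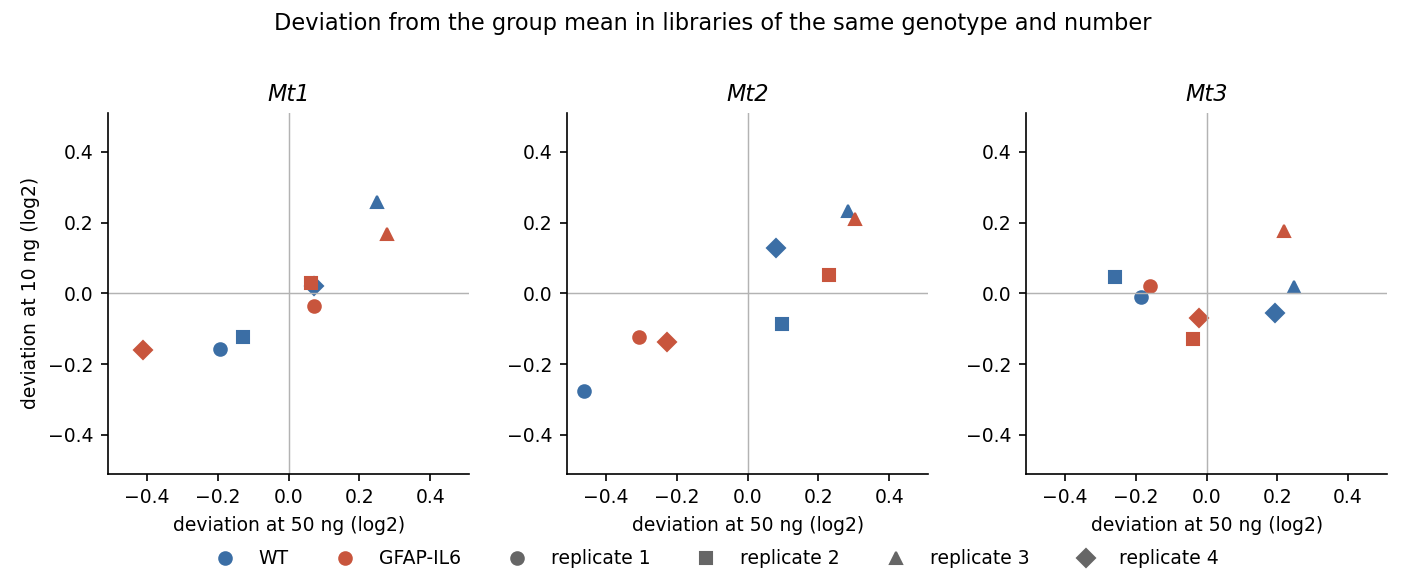
Deviation of log2(CPM + 1) from the mean of its group at 10 ng (y axes) against that at 50 ng (x axes) for the 8 pairs of libraries with the same genotype (colour) and number (marker shape). The points of Mt1 and Mt2 run along the diagonal, with r of 0.90 for both, and those of Mt3 do not, with r of 0.20.

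The genes most like each member were taken over the 16 libraries at 50 and 10 ng, as Pearson's r of log2(CPM + 1) after centring each input, among 8735 genes with a mean of at least 10 CPM. The libraries share their preparation and possibly their RNA, and r describes them only. Mt1 was most like Gstm5 (r = 0.93), Cst3 (0.92), Nkain4 (0.90), Map1lc3a (0.90) and Ypel3 (0.90). After centring each group of 4, these stood at 0.92, 0.93, 0.90, 0.90 and 0.89. Mt2 was most like Gstk1 (r = 0.81), Larp7 (0.80), Chmp1a (0.79), Chst12 (0.78) and Mt1 (0.75), and the values after centring each group were 0.81, 0.83, 0.79, 0.79 and 0.75. Seen from Mt1, Mt2 came at place 447. Mt3 was most like Jdp2 (r = 0.85), Kcna6 (0.80), Tmppe (0.77), Ppp1r2 (0.76) and Ift122 (0.76), with 0.81, 0.77, 0.72, 0.89 and 0.68 after centring each group. The likeness of Mt3 to its neighbours was lower, r = 0.30 with Mt1 and 0.39 with Mt2, and 0.55 with each after centring each group.

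Genes that handle zinc and copper were taken from lists. None of the 6 to 8 zinc exporters of the Slc30 family that were tested at each input passed between genotypes, and none of the 7 to 11 zinc importers of the Slc39 family. Among exporters, which move zinc out of the cytosol, Slc30a5 stood at -0.37 ± 0.20 and Slc30a7 at 0.32 ± 0.35 at 50 ng on the log2 scale. Among importers, Slc39a2 stood at 1.12 ± 0.35 (edgeR adjusted p = 0.468), and Slc39a14, a zinc importer known to be induced by interleukin 6 in liver, at 0.67 ± 0.36 (edgeR adjusted p = 0.835). The median over the exporters was -0.0076 and over the importers -0.039 at 50 ng, beside -0.0034 over all genes. At 10, 1 and 0.5 ng it was 0.067, 0.043 and -1.02 over the exporters, with 1 of 6 above 0 at 0.5 ng, and 0.053, -0.059 and 0.19 over the importers, beside 0.0034, -0.0065 and -0.0097 over all genes. Of 8 to 11 copper genes tested none passed between genotypes, with Sco1, a copper chaperone of cytochrome c oxidase, at -0.54 ± 0.39 and Ccs, the copper chaperone of Sod1, at -0.33 ± 0.21 at 50 ng. Between inputs, Cox17, the mitochondrial copper chaperone, rose by 0.87 ± 0.16 at 1 ng against 50 ng (edgeR adjusted p = 0.00183), 1 of 11 copper genes tested there, and no zinc transporter passed.

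The regulators of the inducible pair did not pass either. Of 10 regulators, 8 to 10 were tested at each input and none passed between genotypes. Stat3, which carries the interleukin 6 signal, stood at 0.49 ± 0.25 at 50 ng and Il6st, the signalling subunit of the interleukin 6 receptor, at 0.41 ± 0.25 (both with an edgeR adjusted p of 0.835). The median of the list was 0.16, 0.50, 0.30 and 0.021 from 50 to 0.5 ng, beside -0.0034, 0.0034, -0.0065 and -0.0097 over all genes. The value was above 0 for 7 of 9, 8 of 10, 6 of 9 and 4 of 8 regulators. Of 12 genes known to respond to STAT3, 7 were tested at 50 ng and 6 at 10 ng, and 1 rose at each. It was Ifitm3, an interferon-induced membrane protein gene, at 1.17 ± 0.21 and 1.08 ± 0.19 (edgeR adjusted p = 0.0115 and 0.00102). Osmr, the oncostatin M receptor gene, stood at 2.67 ± 0.65 at 50 ng and did not pass (edgeR adjusted p = 0.117). None of the 6 tested at 1 ng or the 4 at 0.5 ng passed. The log2 fold change was above 0 for 7 of 7 genes at 50 ng, 4 of 6 at 10 ng, 6 of 6 at 1 ng and 3 of 4 at 0.5 ng, with medians of 0.32, 0.46, 1.40 and 0.20. The summed CPM of the 12 did not overlap at 50 ng (146 to 182 in WT, 185 to 307 in GFAP-IL6). At 1 ng it did not overlap either (107 to 166 and 231 to 384). It overlapped at 10 ng (143 to 212 and 195 to 317) and at 0.5 ng (93.1 to 208 and 161 to 224). The share of gene sets of this size whose sums do not overlap was not counted. Of the glucocorticoid response genes 9 to 10 were tested at each input and none passed, with Fkbp5 at 0.72 ± 0.31 and Zbtb16 at 0.49 ± 0.23 at 50 ng. Of the oxidative response genes under NRF2, 10 to 11 were tested and none passed, with Slc7a11, the cystine transporter, at 0.60 ± 0.24 and Gsr, glutathione reductase, at -0.30 ± 0.20 at 50 ng.

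Markers of the cell types in the tissue were set beside the members. In bulk RNA, fewer cells of a type and less RNA per cell cannot be told apart. Of 12 astrocyte markers tested at 50 ng, Gfap alone rose, and Slc1a2, the glutamate transporter of astrocytes, stood at 0.55 ± 0.24 (edgeR adjusted p = 0.835). The summed CPM of the 12 was 6433 to 7187 in WT and 6677 to 7735 in GFAP-IL6 at 50 ng, overlapping ranges. Of 10 microglia markers, 4 rose at 50 ng, among them the integrin gene Itgam at 2.26 ± 0.31 and the complement genes C1qb at 1.10 ± 0.22 and C1qc at 1.04 ± 0.20, and 4 rose at 10 ng, where Aif1 stood at 0.87 ± 0.19. Their summed CPM was 548 to 629 in WT and 753 to 1641 in GFAP-IL6 at 50 ng, without overlap. The lowest of these GFAP-IL6 values was that of replicate 4. At 10 ng the sum was 500 to 589 in WT and 987 to 1564 in GFAP-IL6. It was 448 to 581 and 983 to 1506 at 1 ng, and 454 to 688 and 1175 to 1780 at 0.5 ng. The sum thus separated the labels at the lower inputs too, where Il6 and Gfap did not. The share of gene sets of this size that separate was not counted. No neuron, endothelial, oligodendrocyte, choroid plexus or blood marker passed between genotypes at any input. The 2 of each list farthest from 0 at 50 ng were Map2 (0.20 ± 0.19) and Snap25 (-0.19 ± 0.16) for neurons and Flt1 (1.14 ± 0.30) and Kdr (0.69 ± 0.43) for endothelium. They were Cldn11 (0.48 ± 0.23) and Mog (-0.30 ± 0.28) for oligodendrocytes, Ttr (-2.41 ± 0.85) and Kcnj13 (-0.79 ± 0.63) for choroid plexus, and Hbb-bt (-0.33 ± 0.20) and Hbb-bs (-0.12 ± 0.18) for blood.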

How the data were processed

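The deposited values are whole-number counts of reads per gene and library, without normalization. To make them the authors removed poly(A) from the ends of single-end reads, aligned these to mm10 with STAR 2.4 and gave the uniquely aligned ones to GENCODE vM6 genes with featureCounts. The build listed with the processing notes, hg19, is the human build named in the same methods. All sample columns were matched to libraries by name. The table's gene lengths gave CPM per kb only. Coordinates are from GENCODE vM21 on GRCm38 and promoters from RefSeq on GRCm38.p6, in which all 3 members matched by symbol.

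Groups were the genotype and input in the sample titles. edgeR 4.0.16 in R 4.3.3 (TMM, filterByExpr, quasi-likelihood test, Benjamini-Hochberg over all genes) was fitted to the 8 libraries of an input for genotype, and to 16 libraries for input and interaction. SE and intervals came from the F statistic. The steps were tested on simulated counts with the same spread in every comparison. That spread was below the common biological coefficient of variation fitted at 1 ng (0.519) and 0.5 ng (0.767). The simulation therefore cannot say how the test performs at those inputs. Alternatives were DESeq2 1.42.0, its size factors, no filter, thinning, a block, a single fit and leaving out each replicate. The block was the replicate number, joined with genotype for input and interaction. For levels the alternatives were TMM scaling and a total without mitochondrial genes. Counts of the 48 replicate pairs differed by a chi-square of at least 2.37 per degree of freedom, so none was a copy of another in its group. Each library was counted as its own replicate, though the chi-square cannot say whether libraries share RNA. Named genes were the members, Mt4, Il6 and Gfap, the 5 genes most like each member, and from each list those that passed (at most 5), otherwise the 2 farthest from 0 at 50 ng. Osmr, Slc1a2, Cox17 and, between inputs, Hbb-bs were named after their values were seen. The members and lists were chosen with earlier results of these data known. Motifs and windows were searched with Python 3.11.15 and Biopython 1.88.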

Additional observations from a re-analysis of the deposited data

Results flagged for a closer look

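Dixon's test at the 95% level was applied to CPM and to the 3 balances in each group of 4 libraries, 48 sets in all, and 4 held a library far from the other 3, where chance gives about 1 in 20. Mt2 in GFAP-IL6 replicate 2 at 0.5 ng was 359 CPM, against 265 to 276 CPM in the others, and rested on 106 counts. The log2 excess of Mt1 over Mt2 in WT replicate 3 at 1 ng was 1.19, against 1.67 to 1.71 in the other WT libraries, and that in GFAP-IL6 replicate 1 at 10 ng was 1.85, against 1.72 to 1.74. The log2 excess of Mt1 over Mt3 in GFAP-IL6 replicate 2 at 1 ng was 5.78, against 5.36 to 5.42, with 5 Mt3 counts behind it.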

How the results depend on the processing

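No member passed between genotypes or in an interaction under any alternative, and for input only Mt1 at 0.5 ng against 50 ng did. Its log2 fold change was -0.32 in DESeq2's test, -0.40 without the filter on low counts and -0.36 in a single fit of all 32 libraries, and it ran from -0.44 (without GFAP-IL6 replicate 4) to -0.33 when a replicate was left out, with adjusted p of 0.0147 to 0.249 over its alternatives. The cause was not tested. Of 164 genotype values under an alternative 152 kept their direction and side of the threshold, as did 109 of 122 input values and 114 of 123 interaction values. Thinned to the lowest total, the genotype effect on Mt2 was 0.10 at 10 ng, -0.13 at 1 ng and 0.0036 at 0.5 ng, and the Mt1 interaction at 10 ng was -0.052. Mt3 could not be tested in thinned libraries because it fell under the filter, and DESeq2 gave it no adjusted p at 10 ng against 50 ng. With DESeq2 size factors Mt1 at 1 ng against 50 ng was 0.0030, and in DESeq2's test it was 0.0025. Leaving out a replicate, the genotype effect ran from -0.11 to 0.19 for Mt2 at 1 ng, and at 0.5 ng from -0.065 to 0.12 for Mt1, from -0.24 to 0.20 for Mt2 and from -0.25 to 0.019 for Mt3. The input effect ran from -0.054 to 0.021 for Mt3 at 10 ng, from -0.078 to 0.028 for Mt1 at 1 ng and from -0.0023 to 0.15 for Mt2 at 0.5 ng. The interaction ran from -0.012 to 0.11 for Mt1 at 10 ng, from -0.21 to 0.31 for Mt3 at 1 ng and from -0.069 to 0.24 for Mt2 at 0.5 ng.

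In the main fits same-numbered libraries were not treated as pairs, since the labels do not name them as such and not every pair correlated above 0.1. The main fits across inputs therefore took no account of RNA that same-numbered libraries may share. Over 7712 genes, deviations from the group mean correlated between 50 ng and the lower input at r of 0.061 to 0.722 for 10 ng, 0.055 to 0.263 for 1 ng and 0.023 to 0.128 for 0.5 ng, and 7, 8 and 6 of 8 libraries were closest to their own number. Ttr in WT replicate 3 was 3355, 3003, 3079 and 3110 CPM from 50 to 0.5 ng, against 25.5 to 335 CPM in the other libraries. With the replicate number as a block, genes passing between genotypes went from 33 to 39 at 50 ng, from 40 to 77 at 10 ng, from 3 to 7 at 1 ng and stayed at 1 at 0.5 ng, and for input from 0 to 155, from 129 to 224 and from 192 to 233. The block left every member's call in place, with Mt1 at 0.5 ng against 50 ng at -0.36 (edgeR adjusted p = 0.0554). The 95% intervals of Mt2 against 50 ng then left out 0 at 10 ng (0.033 to 0.28, edgeR adjusted p = 0.308) and 1 ng (0.056 to 0.52, edgeR adjusted p = 0.249). The block turned the sign of the Mt3 interaction at 1 ng, to 0.0004.

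Counted against a total without mitochondrial genes, all 24 group levels were higher by a factor of 1.18 to 1.19, and 15 moved by more than 1 SD. These were Mt1 in WT at 1314, 1338, 1141 and 911 CPM from 50 to 0.5 ng and in GFAP-IL6 at 1246, 1205 and 931 CPM from 10 to 0.5 ng, Mt2 at 375 CPM in WT at 10 ng and at 368 and 346 CPM in GFAP-IL6 at 10 and 0.5 ng, and Mt3 at 18.97 CPM in WT at 10 ng and at 20.6, 18.5, 27.0 and 24.6 CPM in GFAP-IL6 from 50 to 0.5 ng. TMM scaling moved no level by more than 1 SD. Counts of all genes that passed between genotypes moved by over 1.5 times from 33 at 50 ng to 93 without the filter, 7 thinned and 3 in the single fit, and from 40 at 10 ng to 62 in DESeq2's test, 64 without the filter, 12 thinned and 4 in the single fit. From 3 at 1 ng they went to 13 in DESeq2's test, 11 without the filter and 12 in the single fit, and from 1 at 0.5 ng to 21, 5 and 655. For input, 0 at 10 ng became 29 in DESeq2's test and 2 without the filter, 129 at 1 ng became 460 and 266, and 192 at 0.5 ng became 771 and 833, 102 thinned and 818 in the single fit. Interaction counts of 0 became 5 and 162 in DESeq2's test at 1 and 0.5 ng, 2 and 1 without the filter, and 24 in the single fit at 0.5 ng. The genotype count of 1 at 0.5 ng became 2 without GFAP-IL6 replicate 4 or WT replicate 3. Interaction counts reached 1 at 1 ng without WT replicate 3 or 4 and 2 at 0.5 ng without GFAP-IL6 replicate 4. Mt3 rested on 5 to 145 counts per library.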
